A study of Caenorhabditis elegans with 30 samples.

Results

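Condensin and cohesin are ring-shaped complexes that fold and hold chromosomes. The RNA of 10 of their genes, picked by name out of the 46170 genes of the expression table, was followed in C. elegans L3 larvae: 4 condensin genes (smc-4, capg-2, kle-2 and hcp-6) and 6 cohesin genes (him-1, smc-3, scc-1, scc-3, rec-8 and the release factor gene wapl-1). The rule that picked them uses names and no measured value, although earlier results of these data were known when it was written, and all 10 were above 1 RPKM (reads scaled to transcript length and to the mapped reads of a library) in each group. The condensin subunits that are part of the dosage compensation complex, among them the shared subunit MIX-1, were left to a comparison list.

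The groups were whole larvae grown for 24 h on plates. Wild-type XX hermaphrodites (N2, 4 libraries) and dpy-21(e428) XX hermaphrodites (EKM71, 4 libraries), which lack a non-condensin subunit of the dosage compensation complex, were compared with XO hermaphrodites (TY1072). All XO animals were mutant for sdc-2(y74) on X and for her-1(e1520) on V. Those used for RNA received either vector RNAi (5 libraries) or RNAi against the acetyltransferase gene mys-1 (5 libraries). The expression table holds the authors' mean RPKM of each group and no column per library. The spread between libraries and their depth are therefore unknown here, no test between groups could be run, and "higher" and "lower" below describe these means alone. In the RNA samples, XO and wild-type XX larvae differed in karyotype, in both alleles and in the bacteria they were fed, which cannot be told apart.

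Both complexes are built on a pair of SMC ATPases closed by a kleisin subunit. In condensin, SMC-4 pairs with MIX-1. Condensin II adds the kleisin KLE-2 and the HEAT-repeat subunits CAPG-2 and HCP-6, and compacts mitotic and meiotic chromosomes. C. elegans also has a special condensin on the hermaphrodite X, in which DPY-27 takes the place of SMC-4. In cohesin, HIM-1 (the SMC1 subunit) and SMC-3 are closed by SCC-1 in dividing somatic cells and by REC-8, COH-3 or COH-4 in meiosis, SCC-3 binds the kleisin, and WAPL-1 opens the ring. Cohesin holds sister chromatids together until anaphase and forms loops between divisions.

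The labels were first set against marker RNAs. The gene her-1, mutated in the XO strain, was at 1.70 RPKM in wild-type XX and at 433.6 RPKM in vector-RNAi XO, and sdc-2 was at 4.03 and 0.051 RPKM. RNA of mys-1 itself averaged 15.7 RPKM under vector RNAi and 51.7 RPKM under the label mys-1(RNAi), so the RNA of the target was higher, not lower, where it was to be depleted. The authors report that MYS-1 protein in L3 larvae fed this RNAi was too low to detect by western blot. That is a measure of protein, which the RNA level does not give. The group is named by its label throughout, and every direction given for it rests on that label. The level of dpy-21 RNA, 29.6 RPKM in wild-type XX and 30.1 RPKM in the mutant, does not check the label of a point allele. Among genes tested, those with an average above 1 RPKM in the 2 groups compared, the 2320 X-linked ones had a median log2 ratio of 0.58 in dpy-21(e428) over wild-type XX, and the 11730 autosomal ones had one of -0.013. All 10 condensin and cohesin genes studied are autosomal. The tissue lists were detected in each group (germ line, muscle, intestine, neurons and hypodermis). The exception was sperm, whose 6 genes summed to between 0.642 and 0.943 RPKM, with msp-3 and msp-19 listed at 0. In the detected lists, bli-1 (hypodermis) was below 1 RPKM in every group and nos-2 (germ line) in both XX groups.

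In wild-type XX larvae the levels of the 10 genes spanned a factor of 7.01. The highest was wapl-1 at 35.0 RPKM, followed by him-1 at 31.6, smc-3 at 17.2, scc-3 at 15.0, smc-4 at 13.3, kle-2 at 11.8, rec-8 at 6.92, hcp-6 at 6.34, capg-2 at 5.30 and scc-1 at 4.99 RPKM. Whether neighbours in this order differ beyond the spread between libraries could not be tested. The condensin II HEAT-repeat subunits and the kleisins of cohesin had the 4 lowest levels. The median of the 10 genes, 12.5 RPKM, lay close to the median of all 14362 genes above 1 RPKM, 12.99 RPKM. In vector-RNAi XO the corresponding medians were 16.7 and 13.2 RPKM.

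**Figure D1:**
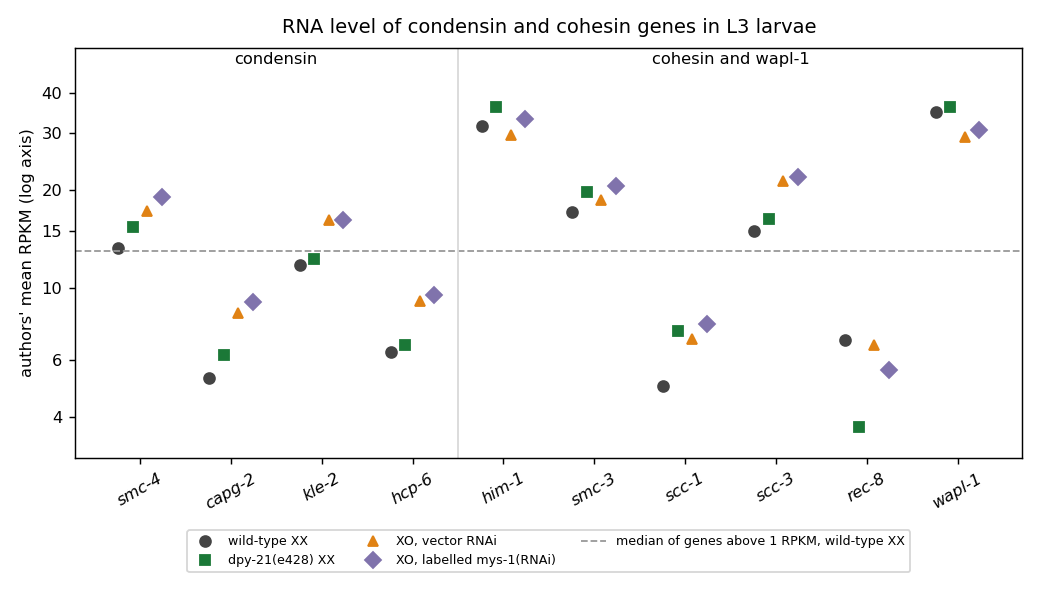
Authors' mean RPKM (log axis) of the 10 genes in the 4 groups, 1 point per group mean, with the median of all genes above 1 RPKM in wild-type XX as a dashed line. The 4 condensin genes have their lowest point in wild-type XX, and rec-8 has its lowest, 3.73 RPKM, in dpy-21(e428).

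The RNA of the 4 condensin genes was higher in vector-RNAi XO hermaphrodites than in wild-type XX, each by a factor between 1.30 and 1.58. For capg-2, which encodes a HEAT-repeat subunit of condensin II, the mean RPKM was 5.30 in wild-type XX, 6.23 in dpy-21(e428), 8.39 in vector-RNAi XO and 9.07 in the group labelled mys-1(RNAi). Its log2 ratio of vector-RNAi XO to wild-type XX, 0.66, was the highest of the 10 genes and the only one past 1.5-fold, the size rule used in place of a test. It fell short of 1.5-fold after centring on the median of all genes or with 1 RPKM added to both means. Both XO means were above both XX means.

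The other HEAT-repeat subunit gene, hcp-6, which encodes a protein of the holocentric chromosomes of worms, was at 6.34, 6.69, 9.15 and 9.53 RPKM in the same order of groups, a log2 ratio of 0.53 between vector-RNAi XO and wild-type XX. The kleisin gene kle-2 was at 11.8, 12.3, 16.2 and 16.2 RPKM (log2 ratio 0.46). The ATPase gene smc-4 was at 13.3, 15.5, 17.3 and 19.1 RPKM (log2 ratio 0.37). In each of these genes the 2 XO means lay above the 2 XX means. The share of all genes with this order was not counted, and 62.8% of all genes tested were higher in vector-RNAi XO than in wild-type XX. Since smc-4 is shared with other condensins, its level was also set against the condensin II subunits. Between wild-type XX and vector-RNAi XO, the ratio of smc-4 to capg-2 went from 2.51 to 2.06, that of smc-4 to hcp-6 from 2.101 to 1.89, and that of smc-4 to kle-2 from 1.13 to 1.07.

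The cohesin genes were divided, with 3 of 6 above 0 in vector-RNAi XO over wild-type XX. The mitotic kleisin gene scc-1, whose 4 means are given with the dpy-21(e428) comparison, had a log2 ratio of 0.48. The regulatory subunit gene scc-3 was at 15.0 RPKM in wild-type XX, 16.4 in dpy-21(e428), 21.4 in vector-RNAi XO and 22.1 in the group labelled mys-1(RNAi), with a log2 ratio of 0.52 in vector-RNAi XO over wild-type XX. The values of scc-3 and scc-1 lay within the range of the 4 condensin genes. The ATPase gene smc-3 was at 17.2, 19.8, 18.7 and 20.6 RPKM (log2 ratio 0.12). Its partner him-1 was at 31.6, 36.1, 29.7 and 33.0 RPKM (log2 ratio -0.093), so that the ratio of him-1 to smc-3 was 1.84 in wild-type XX and 1.59 in vector-RNAi XO. The release factor gene wapl-1 was at 35.0, 36.1, 29.3 and 30.7 RPKM, and its log2 ratio of -0.26 was the lowest of the 10. For wapl-1 both XO means were below both XX means.

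In vector-RNAi XO over wild-type XX, the median log2 ratio of the 10 genes was 0.42, that of the 4 condensin genes 0.50 and that of the 6 cohesin genes 0.037. Over all 14685 genes tested the median was itself 0.18, so 6 of the 10 genes were above it and 4 below. Relative to that shift, the median of the 10 genes was 0.24 and him-1, smc-3, rec-8 and wapl-1 were at -0.27, -0.057, -0.23 and -0.43, so that smc-3 changed sign. Of the 10 genes, 1 was past 1.5-fold higher, against 27.4% of all genes tested, and none was past 1.5-fold lower, against 12.0%. At 1.2-fold, 6 were higher and none lower, against 44.2 and 22.0% of all genes. Of these differences 8, all but those of capg-2 and wapl-1, lay between the quartiles of all genes, -0.20 and 0.65.

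Other lists moved with this comparison, in which 62.8% of all genes tested were above 0, and their part in it was not tested. Of 16 cell division genes, all 16 were above a log2 ratio of 0, with a median of 0.37 and a summed level of 348 RPKM in wild-type XX and 466.2 RPKM in vector-RNAi XO. The germ line list had a median of 0.28 over 11 genes tested, of which 7 were above 0. Its summed level was 75.1 RPKM in wild-type XX and 94.6 RPKM in vector-RNAi XO. All 12 markers were above 0 in both, with nos-2 at 0.22 RPKM in wild-type XX. The 4 muscle markers had a median of 0.93 and the 4 neuronal ones a median of 0.26. The 4 intestinal markers had a median of -0.21, with 2 above 0 and 2 below. The 3 hypodermal genes tested, collagens whose RNA cycles with the moults, went both ways, with X-linked dpy-7 at 0.70, rol-6 at -0.84 and sqt-3 at -1.13. In whole larvae, more cells of a type and more RNA per cell cannot be told apart. Among 15 other genes of the pathway, 13 were above 0 with a median of 0.41. The largest values in that list belonged to condensin subunits of the dosage compensation complex, dpy-28 (7.80 RPKM in wild-type XX and 16.5 in vector-RNAi XO, log2 ratio 1.08) and dpy-27 (19.5 and 32.3 RPKM, 0.72), and mix-1, the ATPase partner of smc-4, was at 15.6 and 22.0 RPKM (0.49). The ratio of mix-1 to smc-4 was 1.17 and 1.27. The remaining condensin subunits of the dosage compensation complex had lower log2 ratios, dpy-26 of 0.36 and capg-1 of 0.16, beside 0.18 for the median of all genes tested.

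**Figure D2:**
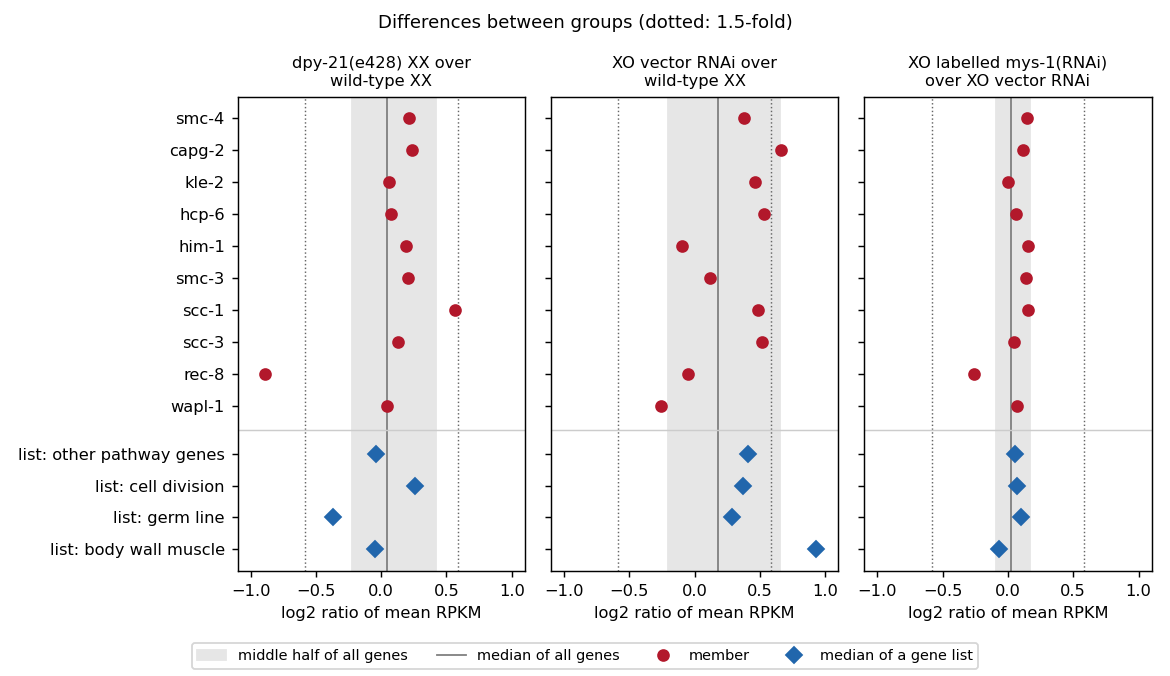
Log2 ratio of mean RPKM of each of the 10 genes in 3 comparisons, with the median and the range between the quartiles of all genes tested, the medians of 4 gene lists (diamonds) and the 1.5-fold limits (dotted). Only rec-8 in dpy-21(e428), at -0.89, and capg-2 in vector-RNAi XO, at 0.66, lie past 1.5-fold.

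The comparison of dpy-21(e428) with wild-type XX asks what follows the loss of dosage compensation in animals of the same karyotype. It shares the wild-type XX libraries with the comparison above, so the values are given side by side and not set against each other. In 9 of the 10 genes, and in 54.4% of all genes tested, the log2 ratio was above 0, and the meiotic kleisin gene rec-8 was below it by the largest amount of the 10. In rec-8 the mean was 6.92 RPKM in wild-type XX, 3.73 in dpy-21(e428), 6.70 in vector-RNAi XO and 5.59 in the group labelled mys-1(RNAi). The dpy-21(e428) mean stood apart from the other 3, at 0.54 times the wild-type level (log2 ratio -0.89), and 5.17% of all genes tested had a lower ratio.

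The mitotic kleisin gene scc-1 had the opposite sign. It was at 4.99 RPKM in wild-type XX, 7.38 in dpy-21(e428), 6.97 in vector-RNAi XO and 7.74 in the group labelled mys-1(RNAi), with a log2 ratio of 0.57 in dpy-21(e428), just short of 1.5-fold. The wild-type XX mean was the lowest of the 4. The ratio of scc-1 to rec-8 was accordingly 0.72 in wild-type XX and 1.98 in dpy-21(e428). The log2 ratios of the other 8 genes ranged from 0.046 for wapl-1 to 0.23 for capg-2, and all 8 lay between the quartiles of all genes, -0.23 and 0.42.

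The median log2 ratio of the 10 genes in dpy-21(e428) was 0.16, and that of all 14204 genes tested was 0.044. None of the 10 was past 1.5-fold higher, against 19.1% of all genes, and 1 was past 1.5-fold lower, against 9.72%. At 1.2-fold, 1 was higher and 1 lower, against 32.7 and 22.5%. The shares and quartiles over all genes include the X-linked ones, 16.5% of autosomal and X-linked genes tested. Their median was 0.58, and that of autosomal genes was -0.013. The 10 genes are autosomal, and the shares over autosomal genes alone, the closer comparison, were not counted. Beside the value of rec-8, all 11 germ line markers tested were below 0, with a median of -0.37 and none past 1.5-fold. The lowest of them were him-3 at -0.58, just short of 1.5-fold, glh-1 at -0.53 and syp-1 at -0.52. Summed over 12 markers, the level was 75.1 RPKM in wild-type XX and 56.8 RPKM in dpy-21(e428). The other meiotic kleisin genes coh-3 and coh-4 were at 2.21 and 1.75 RPKM in wild-type XX and at 1.99 and 1.42 RPKM in the mutant (log2 ratios -0.15 and -0.30). The 2 are close paralogues, and reads that fit both were divided between them by the authors' rescue method, so their separate levels are uncertain. The cell division genes were above 0 in 14 of 16 cases, with a median of 0.26. Other markers differed as well: the autosomal collagen genes rol-6 and sqt-3 were at -1.02 and -0.77. The collagen gene dpy-7 was at 0.32 but is X-linked, and the X-linked genes tested had a median of 0.58. Of the 4 intestinal markers, all below 0, the gut esterase gene ges-1 was at -0.85. The part of germ line cells, dividing cells or the moulting cycle in the values of rec-8 and scc-1 was not tested.

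One further kleisin gene, coh-1, is X-linked and is expressed mainly in cells that have left the cell cycle. Its mean was 10.6 RPKM in wild-type XX and 18.1 in dpy-21(e428), a log2 ratio of 0.77, beside a median of 0.58 for the X-linked genes tested. Of the 15 other pathway genes, coh-1 was the only X-linked one and the only one past 1.5-fold in this comparison. Of all genes tested, 19.1% were past 1.5-fold higher. It was at 9.63 RPKM in vector-RNAi XO. Of the summed RPKM of the 5 kleisin genes, coh-1 made up 39.98% in wild-type XX, 55.4% in dpy-21(e428) and 34.5% in vector-RNAi XO. The share of rec-8 was 26.2, 11.5 and 24.0%, and that of scc-1 was 18.9, 22.6 and 24.95%. The sum was 26.4 RPKM in wild-type XX, 32.6 RPKM in dpy-21(e428) and 27.9 RPKM in vector-RNAi XO. The core ATPase genes him-1 and smc-3 were each within a factor of 1.22 over the 4 groups. Both were also higher in dpy-21(e428), at 1.14 and 1.15 times the wild-type level.

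**Figure D3:**
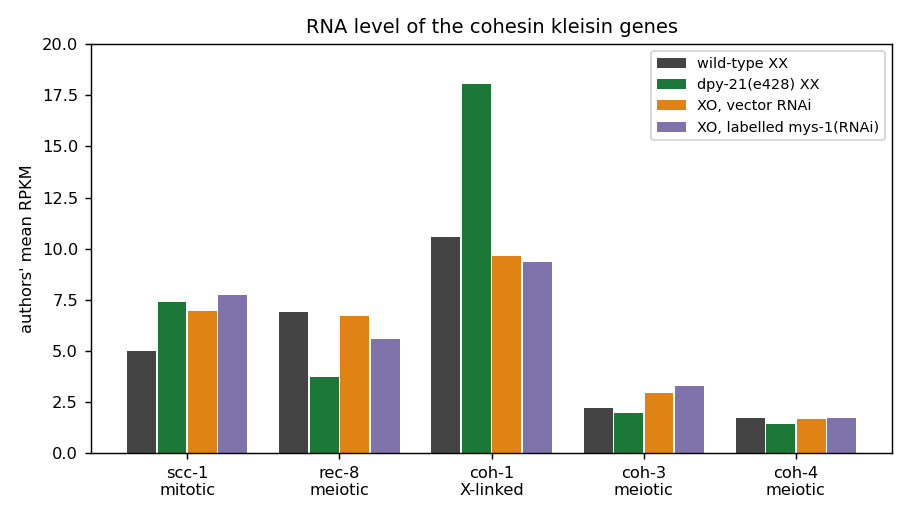
Authors' mean RPKM of the 5 kleisin genes of cohesin in the 4 groups, 1 bar per group mean, without error bars because the table gives no spread. In dpy-21(e428) rec-8 is at 3.73 RPKM against 6.92 in wild-type XX, and X-linked coh-1 is at 18.1 against 10.6.

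The comparison of the group labelled mys-1(RNAi) with vector RNAi was made within the XO strain and on the same kind of plates. The 10 genes differed little, with log2 ratios between -0.26 and 0.16. Of them 8 were above 0, against 56.2% of all genes tested. None was past 1.5-fold higher or lower, against 6.25 and 3.56% of the 15329 genes tested, and none was past 1.2-fold, against 17.2 and 9.66%. The median was 0.090 for the 10 genes and 0.026 for all genes. The highest values belonged to him-1 (0.16), scc-1 (0.15), smc-4 (0.15) and smc-3 (0.14). The kleisin gene kle-2 was at -0.0018, and rec-8, at 0.83 times the vector level (log2 ratio -0.26), was the lowest of the 10 and the only one outside the quartiles of all genes, -0.092 and 0.17. In this comparison 9.74% of all genes had a lower ratio than rec-8. The germ line list did not go the same way as rec-8 here, with 9 of 12 genes above 0 and a median of 0.10. The cell division genes were above 0 in 15 of 16 cases (median 0.073), and of the 15 other pathway genes 12 were above 0 (median 0.055).

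Over the 4 groups together, the highest mean of a gene exceeded its lowest by a median factor of 1.46 for the 10 genes and of 1.58 for the 13188 genes above 1 RPKM in every group. Only rec-8 (1.85) and capg-2 (1.71) exceeded the latter value. Wild-type XX was the lowest group for 7 of the 10 genes, and the group labelled mys-1(RNAi) was the highest for 6. Among the 13188 genes these shares were 36.5 and 29.3%.

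H4K16ac, acetylation of lysine 16 on histone H4, marks open and transcribed chromatin. Its ChIP-seq peaks were listed once for wild-type XX and once for XO, each from 3 ChIP and 3 input libraries as 1 pool (the XO samples here carry no RNAi label), with positions but no height. A peak was counted at a promoter if it overlapped the 500 bp before the annotated start. All 10 genes had such a peak in both backgrounds, against 57.5% of the genes above 1 RPKM in wild-type XX and 63.2% of those in XO. Autosomal protein-coding genes above 1 RPKM, the closer comparison for these 10, had one in 64.7 and 65.8% of cases. The peaks were broad. Those at the 10 promoters had a median width of 18393 bp in XX and 12230 bp in XO, compared with 10081 and 7953 bp for the promoter peaks of autosomal protein-coding genes above 1 RPKM.

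Of the 10 genes, 8 lay wholly inside peaks in XX and 4 in XO, and the median share of the gene inside peaks was 100 and 91.0%. Of autosomal protein-coding genes above 1 RPKM, 38.3% lay wholly inside peaks in XX and 34.0% in XO, so the count of 4 in XO is near the share of such genes, and their medians of coverage were 62.7 and 59.0%. In both backgrounds smc-4 (chrIII:4587501-4593124, plus strand), capg-2 (chrV:12271873-12275658, plus), hcp-6 (chrI:5165148-5171313, plus) and scc-1 (chrII:4698721-4700994, plus) were wholly covered. Coverage was complete in XX but not in XO for wapl-1 (chrIV:4442362-4445740, minus; 97.8% in XO), kle-2 (chrIII:7941717-7945593, plus; 84.3%), him-1 (chrI:4951571-4957667, minus; 83.1%) and scc-3 (chrV:12763945-12767933, plus; 77.2%). The remaining 2 were not wholly covered in either. The longest one, smc-3 (chrIII:11290904-11306247, plus, 15344 bp), was covered over 69.9% in XX and 63.99% in XO by 6 and 5 separate peaks.

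The other was rec-8 (chrIV:13349122-13353193, minus), with 43.7% of the gene inside peaks in XX and 29.9% in XO. Its promoter peak was the narrowest of the 10 in both backgrounds, 1286 bp in XX and 3696 bp in XO, and in XX it covered 217 bp of the 500 bp promoter, where all 9 other promoters were wholly covered. The meiotic kleisin gene thus had the lowest coverage by peaks of the 10 genes in both backgrounds. Peaks give position alone and the lists pool the replicates, so no difference in the amount of acetylation can be read from them, and the lower coverage of a gene in XO than in XX goes with narrower peaks in the whole XO list (median width 906 bp among 15186 peaks, and 1345 bp among 8734 in XX).

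**Figure D4:**
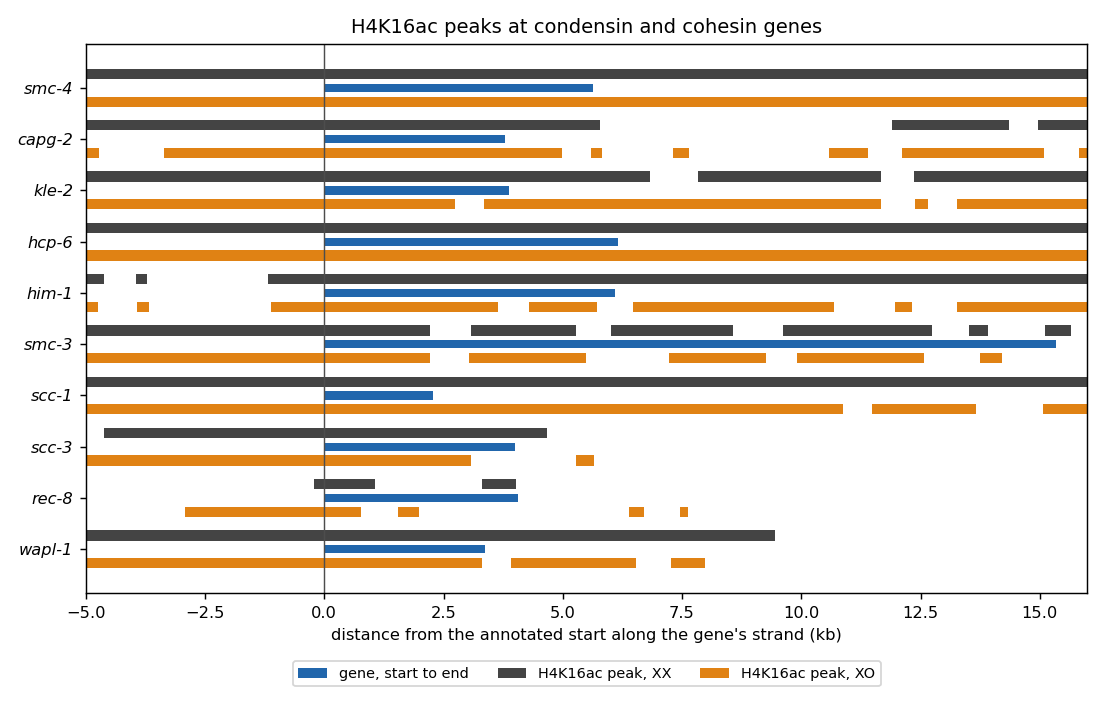
H4K16ac peaks in XX (dark grey) and XO (orange) around the 10 genes (blue, start to end), by distance from the annotated start along the gene's strand in kb, cut off at the edges of the plot. All 10 starts lie in a peak in both backgrounds, and rec-8 carries peaks over 43.7% of its length in XX and 29.9% in XO.

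The promoters shared an arrangement that their selection had not used. In 8 of the 10 genes, all but kle-2 and him-1, a protein-coding gene on the opposite strand started within 1000 bp upstream, so that the intergenic stretch faced 2 starts. This held for 18.3% of the 12406 protein-coding genes above 1 RPKM in wild-type XX, and for 26.9% of the autosomal ones with a promoter peak. The distance between the starts was 171 bp for smc-4, 228 bp for smc-3, 294 bp for scc-1, 322 bp for capg-2 and 476 bp for wapl-1, whose neighbour htz-1 encodes the histone variant H2A.Z. Upstream of kle-2 and him-1 a gene on the same strand ended 102 and 107 bp before the start.

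The stretches before 4 starts are shown because capg-2, scc-1 and rec-8 had the largest differences described above, because smc-4 and capg-2 hold a motif that is marked, and because all bases shown lay inside H4K16ac peaks in XX and in XO. They were read 5′ to 3′ on the gene's strand from the RefSeq copy of WBcel235 and end at the base before the annotated start. Capitals mark matches to TTTNGCGC, the core of an E2F site, on either strand, and to TTNCAG as the last 6 bases, the form of a splice acceptor. Many worm messages receive a trans-spliced leader, so an annotated start can be a splice site downstream of where transcription begins.
smc-4, chrIII:4587331-4587500, plus strand: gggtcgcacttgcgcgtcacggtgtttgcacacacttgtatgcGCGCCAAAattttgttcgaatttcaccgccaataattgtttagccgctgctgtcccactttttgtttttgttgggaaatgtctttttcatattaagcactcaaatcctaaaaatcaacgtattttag
capg-2, chrV:12271673-12271872, plus strand: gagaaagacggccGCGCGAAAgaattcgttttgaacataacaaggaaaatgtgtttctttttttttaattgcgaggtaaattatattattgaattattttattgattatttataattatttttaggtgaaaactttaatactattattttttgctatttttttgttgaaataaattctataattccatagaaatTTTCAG
scc-1, chrII:4698521-4698720, plus strand: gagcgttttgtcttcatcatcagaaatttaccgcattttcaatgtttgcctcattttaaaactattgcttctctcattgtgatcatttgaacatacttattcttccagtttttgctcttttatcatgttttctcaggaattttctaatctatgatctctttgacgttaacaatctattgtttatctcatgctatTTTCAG
rec-8, chrIV:13353194-13353393, minus strand: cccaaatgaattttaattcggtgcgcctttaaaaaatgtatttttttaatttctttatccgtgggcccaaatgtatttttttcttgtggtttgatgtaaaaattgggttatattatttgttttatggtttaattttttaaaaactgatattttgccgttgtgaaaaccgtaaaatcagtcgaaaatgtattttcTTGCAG

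Within 500 bp before the start, TTTNGCGC on either strand was found in 2 of the 10 genes, smc-4 (127 bp before the start) and capg-2 (187 bp), and in 7.25% of the 12406 protein-coding genes above 1 RPKM. TTNCAG formed the last 6 bases before the start in 5 of the 10 genes, and in 28.3% of those 12406. In capg-2, kle-2, scc-1 and scc-3 the last bases were TTTCAG, and in rec-8 they were TTGCAG. Matches are letters in a window and do not show binding or splicing. The smc-4 stretch had a GC content of 41.2%, and those of scc-1, rec-8 and capg-2 had 31.0, 28 and 23.0%.

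Neighbours that start from the same intergenic stretch had their own values. Upstream of scc-1, the proteasome gene rpn-5 was at 110.7 RPKM in wild-type XX and 78.2 in dpy-21(e428) (log2 ratio -0.50), opposite in sign to scc-1. Upstream of rec-8, the gene mex-5, which encodes a zinc-finger RNA-binding protein of the germ line and early embryo, was at 2.12 RPKM in wild-type XX, 2.19 in dpy-21(e428), 6.81 in vector-RNAi XO and 10.7 in the group labelled mys-1(RNAi). Thus mex-5 was near its wild-type level in dpy-21(e428), where rec-8 was at 0.54 times it, and above it in XO, where rec-8 was at 0.97 times it. Some other pairs had the same sign in vector-RNAi XO over wild-type XX: abcf-1 was at a log2 ratio of 0.26 beside scc-3 at 0.52, and mib-1 at 0.40 beside smc-3 at 0.12. Others had opposite signs in that comparison: rpn-5 was at -0.28 beside scc-1 at 0.48, and htz-1 at 0.27 beside wapl-1 at -0.26. Upstream of capg-2, tsfm-1 was at 63.8 RPKM in wild-type XX and 64.7 in vector-RNAi XO (log2 ratio 0.021).

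The libraries were not stranded, so reads from a gene and from an overlapping gene on the other strand cannot be told apart. Of the 10 genes, 3 overlap such a gene, capg-2 with bnc-1 over 89 bp, kle-2 with gsto-1 over 52 bp and hcp-6 with spd-5 over 39 bp. All 3 are condensin II genes, and their partners were also higher in vector-RNAi XO than in wild-type XX: bnc-1 was at 0.57 and 3.59 RPKM, gsto-1 at 32.1 and 94.6 RPKM and spd-5 at 14.9 and 20.7 RPKM. In vector-RNAi XO, smc-4, which overlaps no annotated protein-coding gene, was at 1.30 times its wild-type level. The overlapping genes kle-2, hcp-6 and capg-2 were at 1.38, 1.44 and 1.58 times theirs. The part of these overlaps in the condensin values was not tested.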

How the data were processed

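RNA was sequenced by the authors from non-stranded TruSeq libraries and H4K16ac ChIP DNA from matched ChIP and input libraries. RNA reads were aligned to WS235 with TopHat 2.0.13 and quantified with Cufflinks 2.2.1, and the authors deposited the mean RPKM of each of 4 groups. ChIP reads were aligned with Bowtie 1.1.1, and broad peaks were called with MACS2 2.1.0 on all replicates of a background together. A further deposited table holds the authors' own fold changes and adjusted p-values, which were not used. Annotation came from Ensembl release 115 on WBcel235, the assembly of WS235, and placed 45835 of 46170 genes on nuclear chromosomes. Every peak end lay within the chromosome lengths.

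A log2 ratio was taken between 2 mean RPKM values with no pseudocount, for genes above 0 in both groups and with an average above 1 RPKM, the filter of the study. Past 1.5-fold was set as the size rule, with no test, since tables of group means give no spread. Of the RPKM table, 0 columns were left out. The 10 genes, the gene lists and the rules were chosen with earlier results of these data known. All 10 genes were named. Other pathway genes were named if past 1.5-fold or paralogous to a member. The genes neighbouring the members, and the bases before the starts, were examined after the values were seen. Ratios and overlaps were tested on simulated data. Python 3.11.15, pandas 2.3.3 and matplotlib 3.10.9 were used.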

Additional observations from a re-analysis of the deposited data

How the results depend on the processing

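No paired analysis was possible because the expression table holds group means, and for the same reason no replicate could be left out. The depth per library is unknown. Centred on the median of all genes, the median log2 ratio of the 10 genes in vector-RNAi XO over wild-type XX was 0.24 in place of 0.42. In that comparison the number of genes past the limit was 1 at 1.5-fold, 6 at 1.2-fold and 0 at 2-fold, and it was 0 with 1 RPKM added or after centring, since capg-2 then fell short of 1.5-fold. In dpy-21(e428) the number was 1 at 1.5-fold, 2 at 1.2-fold and 0 at 2-fold, and in the group labelled mys-1(RNAi) it was 0 at each limit. The other 31 values of medians and counts under the alternatives moved by less than 0.1 on the log2 scale or stayed within a factor of 1.5. Among the log2 ratios of single genes, 11 values moved by more. With 1 RPKM added, rec-8 in dpy-21(e428) was at -0.74 in place of -0.89. The others were those of the 10 genes in vector-RNAi XO over wild-type XX after centring. Without rec-8, an alternative chosen after seeing the data, the medians were 0.19, 0.46 and 0.11 in dpy-21(e428), vector-RNAi XO and the group labelled mys-1(RNAi). Promoters of 250 or 1000 bp, an overlap of at least 100 bp and peaks of at least 500 bp left 10 of 10 genes with a promoter peak in both backgrounds.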

Other observations

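The profile of the 10 genes over the 4 groups was summarised by the median of their log2 levels, each centred on its own mean. It was -0.26 in wild-type XX, -0.12 in dpy-21(e428), 0.16 in vector-RNAi XO and 0.21 in the group labelled mys-1(RNAi). By Euclidean distance over these 4 means, smc-4 (0.087), kle-2 (0.091) and scc-3 (0.10) were nearest to it, and him-1 (0.49), wapl-1 (0.62) and rec-8 (0.77) farthest. The nearest of the 13178 other genes above 1 RPKM in every group were phip-1 (0.012), hsp-6 (0.018) and F25E2.3 (0.019). With 4 means such a profile is common, and 2015 of these genes were nearer than the median member (0.27).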
